A study of Arabidopsis thaliana with 12 samples.

Results

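Line 6-6 was compared with wild type (WT) Arabidopsis thaliana after 24 h on Murashige and Skoog (MS) medium with NaCl, in RNA sequencing of root tips of about 1 cm. Before that, seedlings of both groups had spent 8 days at 22 °C under a cycle of 16 h light and 8 h dark. The sources used here do not state the NaCl concentration. The 2 groups hold 3 samples each of the 12 in the series, and the other groups are the same lines on MS without NaCl. The labels do not say what line 6-6 is, and the series title concerns ITPK4, an inositol phosphate kinase. As 1 line was sequenced, anything else that sets 6-6 apart from WT cannot be told apart from its low ITPK4 transcript.

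The authors' deposited table gives 1 value per group in FPKM (fragments scaled to transcript length and to the number mapped), over its 3 samples together. Of 33557 genes listed, 19697 were nuclear and had been tested. The 19022 with at least 1 FPKM in either group were kept, 56.7% of those listed. The effect of a gene is the log2 ratio of 6-6 to WT minus the median over the genes kept, which was -0.05. The 675 tested nuclear genes left out lay below 1 FPKM in both groups, and at that limit WRKY45 was just inside (0.717 and 1.01 FPKM in WT and 6-6) and PYL3 just outside (0.652 and 0.9995 FPKM). Calls rest on the authors' q-value, with 0.05 as the limit, and a single gene is described as higher or lower if it was called. Called genes whose NaCl values are given below without a q-value had the smallest one in the authors' deposited table, 0.00186. All FPKM and q-values below are those of the authors' deposited tables, without an error between samples.

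ITPK4 belongs to a family of kinases that add phosphates to inositol phosphates, a pathway leading to phytate and to the inositol pyrophosphates through which plants sense phosphate. On salt, roots limit sodium entry into the xylem, adjust water channels, deposit suberin and remodel cell walls, and abscisic acid (ABA) carries much of the signal. The outer cells of the root tip include root hair cells, whose fate is set by a small network of transcription factors and whose tips grow by loosening and strengthening the wall.

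ITPK4 (AT2G43980, chromosome 2, 18208253 to 18211644, TAIR10) went from 27.7 FPKM in WT to 2.75 FPKM in 6-6 on NaCl, an effect of -3.28, the lowest among genes with a symbol and at least 5 FPKM. On MS, where the samples are different ones, it stood at 24.9 FPKM and 2.95 FPKM, an effect of -3.01, and the authors' deposited table lists a q-value of 0.00396. Within 50 kb on each side of it, 0 of 27 other genes kept were called on NaCl. The other members of the inositol phosphate list stayed close to 0. Of 17 kept, ITPK4 was the 1 called, and the median effect was -0.01. ITPK1, a kinase of the same family, stood at 78.5 FPKM and 73.8 FPKM (effect -0.03, q-value 0.711), and IPK1, which makes phytate and shares a locus with another gene in the files, at 32.2 FPKM and 28.3 FPKM (effect -0.13, q-value 0.644). Among genes that handle free inositol, the oxygenase gene MIOX2 was higher, at 29.3 FPKM in WT and 56.1 FPKM in 6-6 (effect 0.99). The inositol transporter genes INT2 (1.26 to 0.529 FPKM, effect -1.19, q-value 0.00472) and INT1 (19.4 to 15 FPKM, effect -0.32, q-value 0.0178) were lower.

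In all, 1306 genes were called on NaCl, 6.87% of those kept. Of these, 593 (3.12%) were higher in 6-6 and 713 (3.75%) were lower, so that 45.4% of the calls were higher. The changes upward were the larger ones: the median effect was 0.67 among genes called higher and -0.41 among genes called lower, and 123 against 54 lay at least 1 away from 0. The balance of directions depended on the threshold, since 51.2% were higher at a q-value below 0.01 and 67.3% when the test statistic of the authors was taken as a normal deviate. Calls were made more often at high levels, in 11.7% of genes with at least 100 FPKM in the higher group and in 5.79% of those between 1 and 5 FPKM. They lay on all 5 chromosomes, at 6.3% to 7.97% of the genes kept on each.

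**Figure D1:**
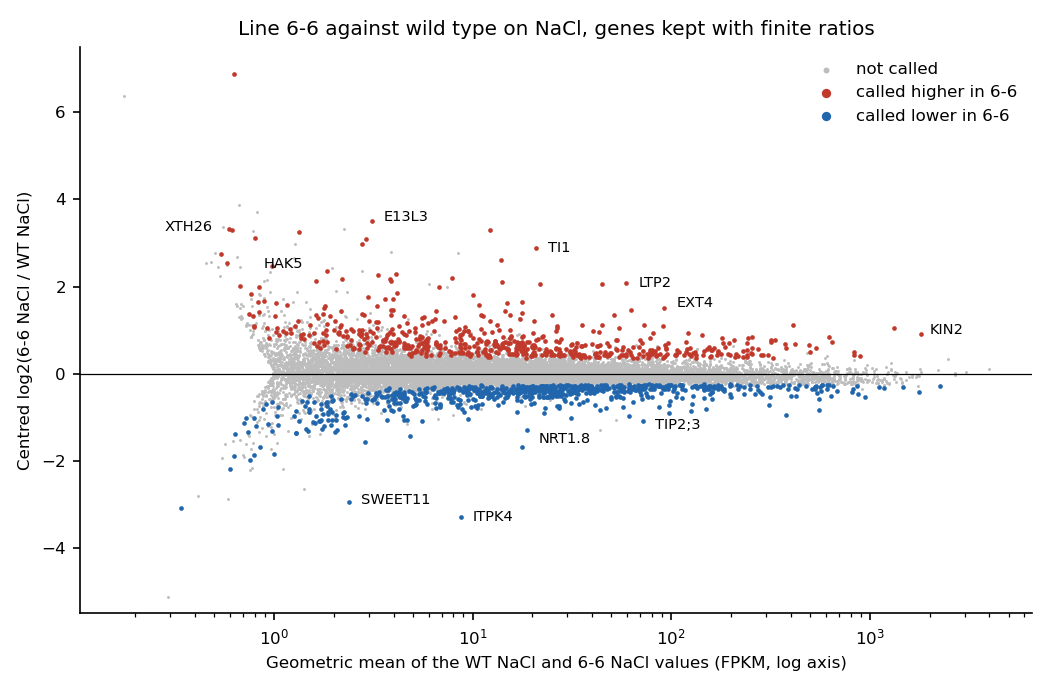
Effect of each gene kept on NaCl (vertical axis, centred log2 ratio of 6-6 to WT) against the geometric mean of its group values (horizontal axis, FPKM, log scale); genes with a group at 0 have no finite ratio and are not drawn. Red points are the genes called higher and blue points those called lower, grey points were not called, and ITPK4 at -3.28 and SWEET11 at -2.95 are marked near the lower edge.

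All markers of root hair, meristem, root cap, endodermis, suberin, xylem and phloem in the marker list reached 1 FPKM in a group. Their summed levels moved with some of the results below: 858 FPKM in WT and 678 FPKM in 6-6 for 8 endodermis markers, 405 and 454 FPKM for 4 root hair markers, 382 and 416 FPKM for 4 suberin markers, and 34.5 and 30.2 FPKM for 4 root cap markers. The rise of the root hair sum came mostly from EXPA18 (156 to 205 FPKM), while RHD2 stood at 43.7 and 37.9 FPKM, and that of the suberin sum from CYP86A1 (147 to 203 FPKM), while ASFT stood at 182 and 152 FPKM. Both EXPA18 and CYP86A1 are also members of the lists below. The sum of 5 leaf markers was 204 FPKM in WT and 131 FPKM in 6-6, which came mostly from 1 gene of a family of near-identical copies, CAB1 (136 to 69.6 FPKM, effect -0.91). The seed markers CRA1 and CRU3 were listed at 0 in both groups. In such bulk samples, fewer cells of a type and less RNA per cell cannot be told apart.

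Among the genes with the highest effects stood several of defence and of the cell surface. The trypsin inhibitor gene TI1 rose from 7.77 FPKM in WT to 55.4 FPKM in 6-6 (effect 2.89), and the lipid transfer protein gene LTP2 from 29.3 to 120 FPKM (effect 2.09). E13L3, described as similar to a glucan endo-1,3-beta-glucosidase, stood at 0.943 and 10.3 FPKM (effect 3.5). The peroxidase gene PA2 (2.23 to 7.77 FPKM, effect 1.85), the blue copper protein gene BCB (6.37 to 18.3 FPKM, effect 1.58) and the extensin gene EXT4 (55.5 to 154 FPKM, effect 1.52) followed. AT5G22580, described only by its stress responsive A/B barrel domain, was higher on NaCl at 22.4 and 89.6 FPKM (effect 2.05) and had an effect of 0.06 on MS (q-value 0.992).

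At the other end were transporters and enzymes. After ITPK4, the lowest effect among called genes with a symbol and at least 5 FPKM was that of SWEET11, a sucrose exporter gene that acts in phloem loading in leaves, at 6.78 FPKM in WT and 0.842 FPKM in 6-6 (effect -2.95). The nitrate transporter gene NRT1.8 (29.8 to 11.8 FPKM, effect -1.29) and the efflux transporter gene DTX1 (5.0 to 1.64 FPKM, effect -1.56) were lower too, but the files give each 1 locus with another gene, so their values are uncertain. MRN1, the marneral synthase gene of root triterpene synthesis, stood at 45.1 and 21.5 FPKM (effect -1.01). The tonoplast aquaporin gene TIP2;3 (107 to 48.9 FPKM, effect -1.08) was lower in 6-6 on both media.

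**Figure D2:**
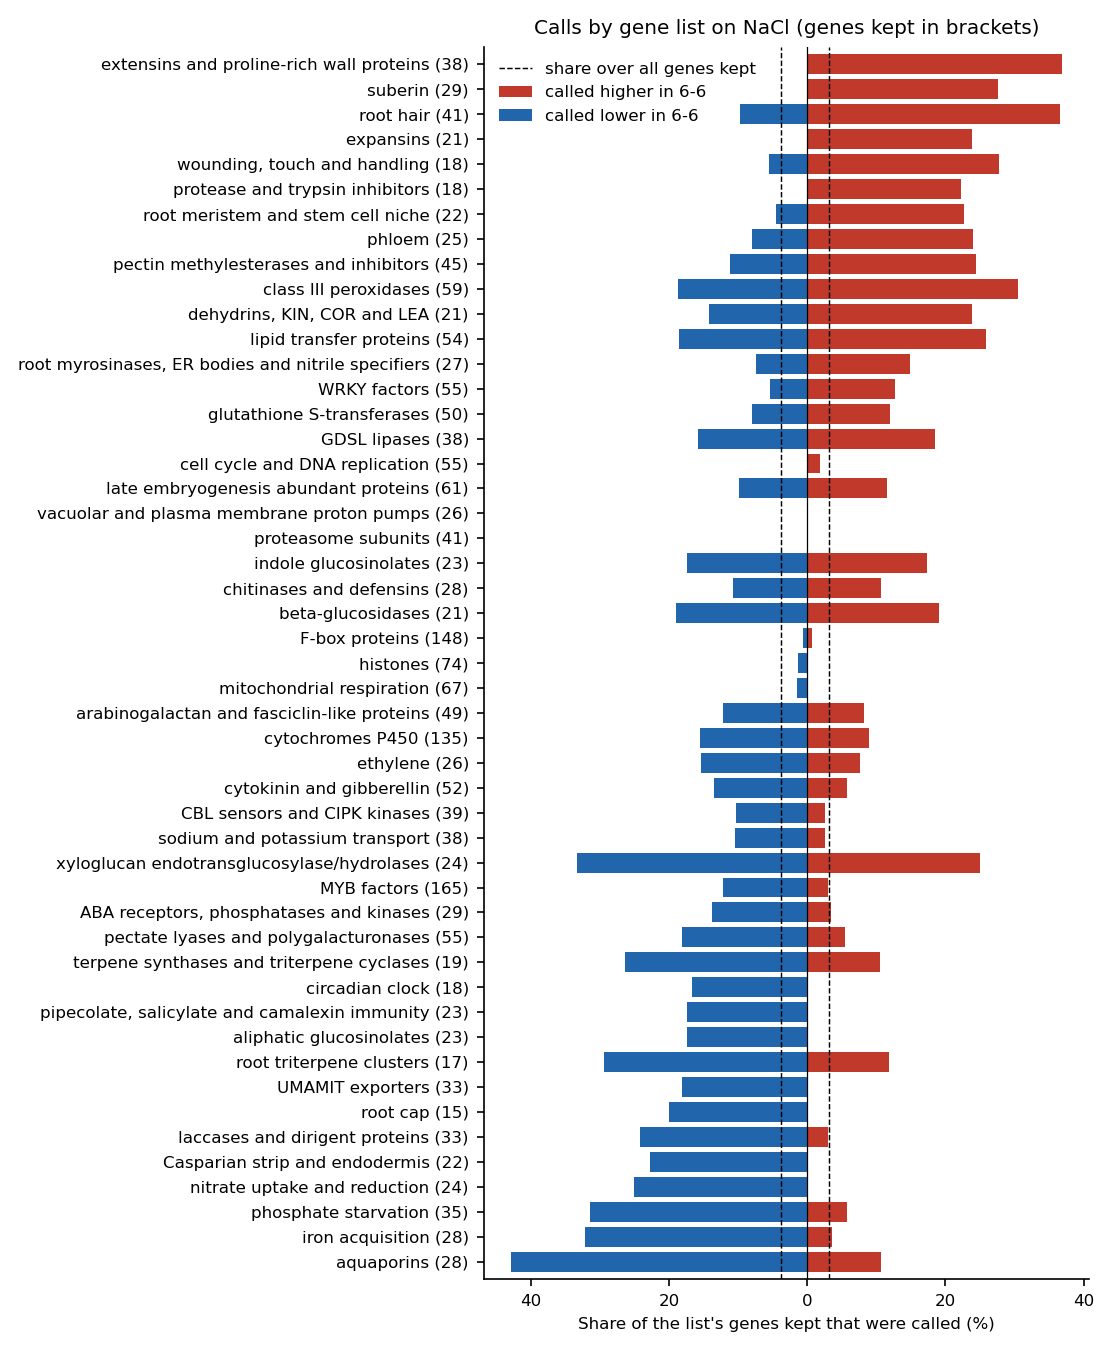
Share of the genes kept in each gene list drawn (kept number in brackets) that was called higher in 6-6 on NaCl (red, to the right) or lower (blue, to the left), in percent of the list. Lists were picked for drawing because they were called often or very seldom, so most lists near the share over all genes are left out. The shortest lists are left out too, and sodium and potassium transport and the CBL and CIPK list were added by name. The dashed lines mark the shares over all genes kept, 3.12% higher and 3.75% lower, and the lists run from those with the most calls higher, such as extensins with 14 of 38, to aquaporins with 12 of 28 lower.

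Root hair genes were among the most often called, with 15 of 41 kept higher in 6-6 and 4 lower and a median effect of 0.14. With the normal deviate, 5 were higher and 0 lower. All 4 lower members act early, in setting which cells form hairs or start them. TRY (3.29 to 1.26 FPKM, effect -1.33, q-value 0.0187), ETC1 (14.9 to 9.91 FPKM, effect -0.54, q-value 0.0204) and CPC (35.4 to 26 FPKM, effect -0.39, q-value 0.0105) encode small MYB proteins that favour hair fate, and RHD6 (32.1 to 25.2 FPKM, effect -0.29, q-value 0.0231) encodes a basic helix-loop-helix factor that starts hair outgrowth. The receptor-like kinase gene SUB, also called SCRAMBLED, which positions hair cells, was higher at 16.7 and 24.1 FPKM (effect 0.58). The later regulators RSL4 (22.0 and 20.6 FPKM, effect -0.04, q-value 0.743) and RSL2 (21.7 and 17.8 FPKM, effect -0.23, q-value 0.0915) were not called.

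The other 14 higher members act at the wall or surface of the growing hair or are known as root hair specific genes. The proline-rich wall protein genes PRP1 (29.2 to 43.4 FPKM, effect 0.63) and PRP3 (212 to 305 FPKM, effect 0.58) were higher, as were AGP3, for an arabinogalactan protein (259 to 427 FPKM, effect 0.77), and the peroxidase genes RHS18 (39.8 to 59.3 FPKM, effect 0.63) and RHS19 (188 to 317 FPKM, effect 0.81). G3Pp2, of the glycerol-3-phosphate permease family, stood at 11.4 and 26.4 FPKM (effect 1.26). XTH12, XTH13, XTH14 and XTH26, which encode enzymes that cut and rejoin xyloglucan, had effects of 0.55, 0.97, 0.57 and 3.12, the last from 0.277 FPKM in WT to 2.32 FPKM in 6-6. XTH12, XTH13 and XTH14 are close copies, between which the authors' counting could split reads. The wall expansion gene EXPA7 (160 and 163 FPKM, effect 0.09, q-value 0.923) and SHV2 (45.2 and 48.0 FPKM, effect 0.14, q-value 0.732) were not called. On MS, 3 of 41 members were called, all higher.

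The root hair element, a sequence described from promoters of root hair genes, was searched on both strands in the 250 bases before the start of 18970 of the 19022 genes kept. The element was added after the values had been seen, and a share in a list of root hair genes is not independent of how it was described. It was found before 0.759% of all genes, 3.37% of the 593 called higher and 0.704% of the 710 read among those called lower. In the root hair list it stood before 7 of the 15 genes called higher, 0 of the 4 called lower and 8 of all 41. The 13 other genes called higher with the element included ROPGEF10, whose protein activates the ROP switches of hair outgrowth (3.93 to 5.72 FPKM, effect 0.60, q-value 0.00337), and the peroxidase gene AT2G35380 (70.9 to 103 FPKM, effect 0.59). The sequences shown are those of the 4 carriers with the largest effects among the higher members that share no locus. They are from RefSeq, build TAIR10.1, read 5′ to 3′ up to the base before the gene's start, with the match in capitals, at chr4:12920492-12920741 (plus strand) for G3Pp2, chr1:20504651-20504900 (plus) for PRP1, chr5:7426060-7426309 (plus) for RHS18 and chr4:993040-993289 (minus) for RHS13.
G3Pp2: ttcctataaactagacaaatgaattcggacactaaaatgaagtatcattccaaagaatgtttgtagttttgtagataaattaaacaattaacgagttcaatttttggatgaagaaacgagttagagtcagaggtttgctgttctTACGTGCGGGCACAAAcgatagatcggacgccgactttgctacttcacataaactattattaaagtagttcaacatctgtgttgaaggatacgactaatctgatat
PRP1: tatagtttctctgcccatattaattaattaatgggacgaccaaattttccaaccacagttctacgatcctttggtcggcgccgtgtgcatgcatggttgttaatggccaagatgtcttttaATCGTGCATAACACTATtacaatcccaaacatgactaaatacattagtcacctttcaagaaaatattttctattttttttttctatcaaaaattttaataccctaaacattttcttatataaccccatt
RHS18: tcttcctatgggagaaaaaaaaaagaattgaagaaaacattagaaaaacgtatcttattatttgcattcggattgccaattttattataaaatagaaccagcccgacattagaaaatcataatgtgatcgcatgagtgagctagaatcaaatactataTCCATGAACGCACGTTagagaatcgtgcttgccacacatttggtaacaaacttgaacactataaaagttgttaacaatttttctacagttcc
RHS13: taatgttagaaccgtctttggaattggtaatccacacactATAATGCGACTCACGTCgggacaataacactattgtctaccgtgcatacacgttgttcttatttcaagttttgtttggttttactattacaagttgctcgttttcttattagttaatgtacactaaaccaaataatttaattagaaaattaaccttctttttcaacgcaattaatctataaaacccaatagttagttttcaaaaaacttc
The match began 106 bases before the start in G3Pp2, 129 in PRP1, 92 in RHS18 and 210 in RHS13.

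Extensins, hydroxyproline-rich proteins that cross-link in the wall, were called higher on both media and lower on neither. Of 38 extensins and proline-rich wall proteins kept, 14 were higher on NaCl and 0 were lower, with a median effect of 0.36. On MS, 15 were higher and 0 lower, with a median of 0.42. At an unadjusted p-value below 0.05 in the authors' deposited table, 20 were higher and 3 lower on NaCl, and with the normal deviate 5 were higher and 0 lower. EXT4 had an effect of 1.52 on each medium, and EXT6 had 0.76 on NaCl (18.2 to 29.8 FPKM) and 1.4 on MS. EXT12 stood at 7.31 and 17.6 FPKM on NaCl (effect 1.32). These genes hold repeats and are near copies of one another, so their single values are uncertain.

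The list of expansins, which loosen walls, had 5 of 21 higher and 0 lower. Without adjustment, 7 passed a p-value of 0.05 higher and 2 lower, and with the normal deviate 2 were higher and 0 lower. EXPA4 went from 63.4 FPKM in WT to 130 FPKM in 6-6 (effect 1.09), and EXPA6 at 9.14 and 17 FPKM (effect 0.95). The median of the list was 0.04, and all genes kept have a median of 0 by construction. EXP3, an expansin gene by its symbol, is missing from the list and its counts. It was called higher on NaCl (effect 1.35, q-value below 0.05), also with the normal deviate. Xyloglucan endotransglucosylase/hydrolases were called in both directions, 6 higher and 8 lower of 24. The higher ones included XTH20 (50.2 to 105 FPKM, effect 1.12) beside the root hair members above. XTH17 (165 to 98.1 FPKM, effect -0.70), XTH21 (75.9 to 42.7 FPKM, effect -0.77) and XTH15 (81.9 to 50.2 FPKM, effect -0.65) were lower.

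Class III peroxidases, which link or loosen wall polymers with hydrogen peroxide, had 18 of 59 higher and 11 lower, 49.2% of the family against 6.87% of all genes. The peroxidase genes PA2 and AT5G06730 (3.46 to 13.3 FPKM, effect 1.99), neighbours on chromosome 5, were both higher. AT3G01190 (648 to 456 FPKM, effect -0.45) and AT5G66390 (344 to 239 FPKM, effect -0.47) were lower at high levels. Pectin methylesterases and their inhibitors, which set how firmly pectin gels, had 11 of 45 higher and 5 lower. AT5G62350 rose from 90.2 to 165 FPKM (effect 0.93). Pectate lyases and polygalacturonases, which cut pectin, had 3 of 55 higher and 10 lower, with a median of 0.00. AT1G65570 was one of the lower (30.8 to 21.3 FPKM, effect -0.47).

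Lipid transfer proteins were called in both directions, 14 higher and 10 lower of 54. EARLI1 (283 to 596 FPKM, effect 1.13), LTP5 (11.1 to 28.1 FPKM, effect 1.39) and LTP2 were higher. AT5G46890 (535 to 269 FPKM, effect -0.94) and AT3G22600 (751 to 406 FPKM, effect -0.83) were lower. AZI1, EARLI1 and AT4G12490, which are neighbours on chromosome 4 and similar to one another, had effects of 0.52, 1.13 and 2.07. Laccases and dirigent proteins, which act in lignin and lignan formation, had 8 of 33 lower and 1 higher. The neighbouring dirigent genes AT4G11190 (60.0 to 32.3 FPKM, effect -0.84) and AT4G11210 (98.5 to 65.1 FPKM, effect -0.54) were among them.

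**Figure D3:**
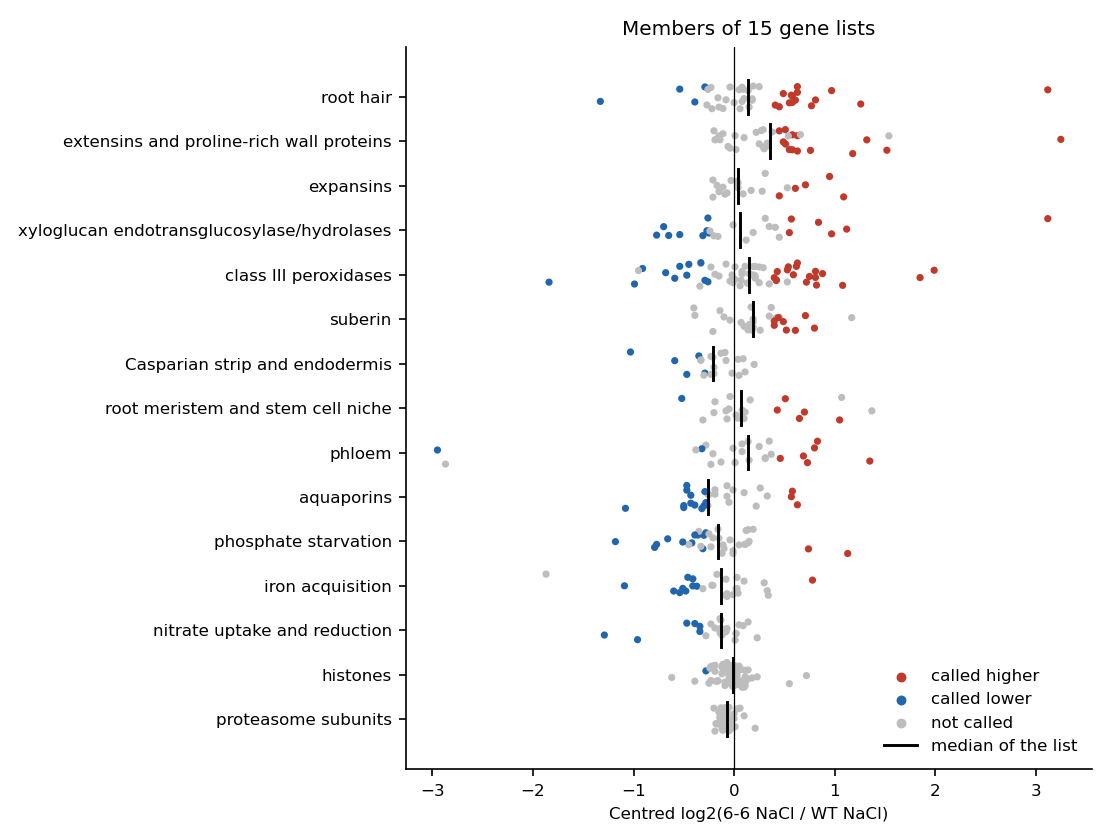
Effects (horizontal axis, centred log2 ratio of 6-6 to WT on NaCl) of the members kept of 15 gene lists, 1 point per gene, with red for called higher, blue for called lower, grey for not called and a black bar at the median of the list. The extensin median lies at 0.36 and the aquaporin median at -0.25, while proteasome subunits lie between -0.20 and 0.21.

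Genes for suberin, the waxy layer around endodermal cells, were called in 1 direction: 8 of 29 were higher and 0 lower, with a median effect of 0.19. Before adjustment, 13 had a p-value below 0.05 and were higher and 3 lower, and with the normal deviate 1 was higher and 0 lower. They span the pathway: MYB53 (5.50 to 8.11 FPKM, effect 0.61, q-value 0.0143), a regulator; CYP86A1 (147 to 203 FPKM, effect 0.52), a fatty acid hydroxylase; FAR1 (4.14 to 6.97 FPKM, effect 0.80), a fatty acid reductase; FACT (37.7 to 59.6 FPKM, effect 0.71), which makes alkyl caffeates; and the exporter gene ABCG20 (9.96 to 13.5 FPKM, effect 0.49, q-value 0.00337). CYP86A1 was also called higher on MS, with an effect of 0.75.

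The Casparian strip list, for the lignin ring that seals the endodermis, had 5 of 22 lower and 0 higher, with a median of -0.21. At an unadjusted p-value below 0.05, 13 were lower and 0 higher, and with the normal deviate 2 were lower and 0 higher. CASP5, for a scaffold protein of the strip, fell from 13.8 to 6.53 FPKM (effect -1.03). CASP1, which shares a locus (263 and 216 FPKM, effect -0.23, q-value 0.208), and the master regulator MYB36 (28.6 and 23.9 FPKM, effect -0.20, q-value 0.154) were not called. On MS the list had no call in either direction and a median of 0.05. The endodermis transcription factors SCR (27.9 and 27.6 FPKM, effect 0.04, q-value 0.960) and SHR (17.4 and 18.1 FPKM, effect 0.11, q-value 0.840) were near 0. The summed endodermis markers, given above, moved the same way as this list, and their part in it was not tested.

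Regulators of the root stem cells had 5 of 22 higher and 1 lower. WOX5, which marks the quiescent centre, went from 3.62 FPKM in WT to 7.25 FPKM in 6-6 (effect 1.05). The PLETHORA family, which maintains the meristem, had 3 higher members, AIL6 (12.1 to 18.9 FPKM, effect 0.70), AIL5 (1.95 to 2.96 FPKM, effect 0.65, q-value 0.0371) and BBM (3.35 to 4.6 FPKM, effect 0.51, q-value 0.0295). PLT1 (4.49 and 4.83 FPKM, effect 0.16, q-value 0.748) and PLT2 (4.61 and 4.74 FPKM, effect 0.10, q-value 0.921), of the same family, were not called. RGF3, for a peptide that promotes meristem growth, was lower (32.9 to 22.1 FPKM, effect -0.52, q-value 0.00337). The cell cycle and DNA replication list had 1 of 55 called, with a median of 0.07, and the root cap list had 3 of 15 lower, among them SMB, which matures cap cells (7.93 to 5.68 FPKM, effect -0.43, q-value 0.0178).

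In the phloem list, 6 of 25 were higher and 2 lower. The higher ones included early regulators, the Dof factor genes HCA2 (1.82 to 4.48 FPKM, effect 1.35), TMO6 (16.5 to 27.6 FPKM, effect 0.80) and DOF6 (3.11 to 4.97 FPKM, effect 0.73, q-value 0.00826), and OPS, needed for continuous phloem strands (5.23 to 8.11 FPKM, effect 0.69). PP2-A1, for a lectin of mature phloem, was higher too (14.6 to 19.3 FPKM, effect 0.46, q-value 0.0212). The lower ones were the transport genes SWEET11 and FTIP1 (6.73 to 5.19 FPKM, effect -0.32, q-value 0.0204). The sum of 4 phloem markers was 23.9 FPKM in WT and 20.4 FPKM in 6-6. On MS, 0 of these 6 higher genes were called.

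Aquaporins, the membrane channels for water, were lower more often than any other list of at least 20 genes, with 12 of 28 lower and 3 higher and a median effect of -0.25. With the normal deviate, 1 was lower and 0 higher. The plasma membrane channels PIP1B (1044 to 727 FPKM, effect -0.47), PIP2B (767 to 524 FPKM, effect -0.50) and RD28 (278 to 193 FPKM, effect -0.47) fell by similar amounts. So did the vacuolar channels GAMMA-TIP (2089 to 1493 FPKM, effect -0.43) and TIP2;2 (489 to 332 FPKM, effect -0.50). The 3 higher members stood at low levels: PIP2;8 (8.89 to 12.8 FPKM, effect 0.58, q-value 0.00717), PIP2;5 (3.31 to 4.92 FPKM, effect 0.63, q-value 0.0414) and NIP1;2 (15 to 21.4 FPKM, effect 0.57). The PIP genes are near copies, between which reads could be split. On MS, 2 were lower and 1 higher, with a median of -0.16.

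Sodium and potassium transport was called in a few members. HKT1, which retrieves sodium from the xylem, went from 13.9 FPKM in WT to 8.12 FPKM in 6-6 on NaCl (effect -0.72) and had an effect of -1.19 on MS, called on both. SKOR, the channel that loads potassium into the xylem, stood at 12.5 and 6.55 FPKM (effect -0.88), with the limit that it shares a locus. HAK5, the high-affinity potassium uptake carrier, was higher at 1.06 and 4.61 FPKM (effect 2.18), and on MS its effect was 2.4, also called. SOS1, the sodium exporter (13.1 and 11.7 FPKM, effect -0.11, q-value 0.457), and NHX1, which moves sodium into the vacuole (86.9 and 73.6 FPKM, effect -0.19, q-value 0.144), were not called. Over the list, 1 of 38 was higher and 4 lower.

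CBL8, for a calcium sensor of the calcineurin B-like family, was higher at 5.28 and 12.5 FPKM (effect 1.3) and on MS had an effect of 1.56, called on both. Of the 39 CBL sensors and their CIPK kinases kept, 4 were lower, all kinases, among them CIPK12 (61.3 to 47.8 FPKM, effect -0.31, q-value 0.00595) and CIPK17 (3.98 to 2.55 FPKM, effect -0.58, q-value 0.00472).

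**Figure D4:**
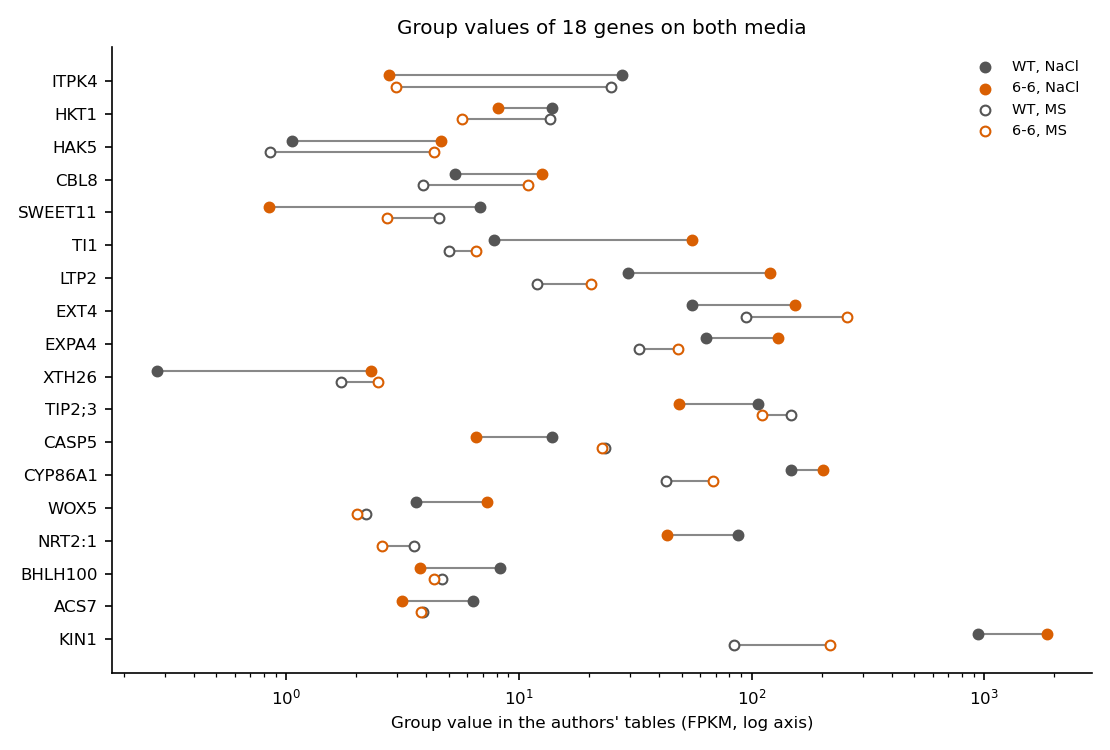
Group values (horizontal axis, FPKM, log scale) of 18 genes in WT (grey) and 6-6 (orange), on NaCl (filled) and on MS (open), with a line joining the lines on each medium; each point is 1 value of the authors for 3 samples combined, and the media come from separate tables. ITPK4 and HAK5 differ by similar distances on both media, whereas TI1 at 7.77 and 55.4 FPKM on NaCl and CASP5 at 13.8 and 6.53 FPKM on NaCl lie far apart on that medium.

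Of 35 phosphate starvation genes, 11 were lower and 2 higher, with a median of -0.16. With the normal deviate, 2 were lower and 2 higher. The lower ones included enzymes that replace phospholipids, MGDC (1.60 to 0.684 FPKM, effect -1.18), MGD2 (2.35 to 1.59 FPKM, effect -0.51, q-value 0.0485) and SQD2 (35.9 to 26.3 FPKM, effect -0.39), and the phosphatase gene PS2 (AT1G73010; 11.2 to 6.34 FPKM, effect -0.77). PHO1, which exports phosphate to the xylem (117 to 93.0 FPKM, effect -0.28, q-value 0.0178), and PHO2, which limits uptake (14.1 to 10.1 FPKM, effect -0.42), were lower as well. RNS1, a ribonuclease gene that also responds to wounding (24.4 to 51.3 FPKM, effect 1.13), and the malate channel gene ALMT1 (11.5 to 18.6 FPKM, effect 0.74) were higher. The main uptake carrier PHT1;1 (628 and 589 FPKM, effect -0.04, q-value 0.734) and the regulator PHR1 (27.8 and 24.1 FPKM, effect -0.15, q-value 0.262) were not called.

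P1BS, the site that PHR1 binds, has the letters GNATATNC, which read the same on both strands. It was found in the 250 bases before 5.4% of all genes, 7 of 35 in the phosphate list and 2 of the 11 lower members, PS2 and MGD2. Both promoters are shown from RefSeq, build TAIR10.1, with the site in capitals, at chr1:27466349-27466598 (minus strand) for PS2 and chr5:6896213-6896462 (plus) for MGD2.
PS2: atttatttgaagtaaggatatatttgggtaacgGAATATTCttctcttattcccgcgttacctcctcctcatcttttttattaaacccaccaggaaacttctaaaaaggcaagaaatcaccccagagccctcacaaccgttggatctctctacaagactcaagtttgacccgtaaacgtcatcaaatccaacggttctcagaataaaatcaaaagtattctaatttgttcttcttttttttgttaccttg
MGD2: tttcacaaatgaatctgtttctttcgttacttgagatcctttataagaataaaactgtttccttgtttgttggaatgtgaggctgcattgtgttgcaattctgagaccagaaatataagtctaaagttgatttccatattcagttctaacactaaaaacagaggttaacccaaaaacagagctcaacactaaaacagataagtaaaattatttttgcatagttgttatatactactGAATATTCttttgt
The sites began 217 bases before the start in PS2 and 14 in MGD2, and both read the same 8 letters.

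Iron acquisition had 9 of 28 lower and 1 higher, and with the normal deviate 1 lower and 0 higher. Sulfate uptake had 2 of 21 lower, with a median of -0.06. The basic helix-loop-helix regulators BHLH100 (8.30 to 3.75 FPKM, effect -1.09), bHLH38 (22.1 to 15 FPKM, effect -0.51) and bHLH39 (18.1 to 12.5 FPKM, effect -0.48, q-value 0.00337), which switch on iron uptake, were lower. The ferric reductase gene FRO2 (73.3 to 53.1 FPKM, effect -0.41) and the citrate exporter gene FRD3 (62.6 to 45.5 FPKM, effect -0.41) were lower, while the main uptake carrier IRT1 (548 and 504 FPKM, effect -0.07, q-value 0.680) was not called and IRT2 was higher (16.2 to 26.7 FPKM, effect 0.78). On MS, bHLH38 and bHLH39 had effects of 0.48 and 0.47 and were not called.

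Nitrate uptake and reduction had 6 of 24 lower and 0 higher. Unadjusted p-values below 0.05 were held by 9 lower and 0 higher members, and with the normal deviate 2 were lower and 0 higher. NRT2:1, the main high-affinity nitrate carrier, fell from 87.5 to 43.3 FPKM (effect -0.96), and NRT1.5, which loads nitrate into the xylem, from 107 to 81.1 FPKM (effect -0.34). The nitrate reductase gene NIA2 (234 and 206 FPKM, effect -0.13, q-value 0.380) was not called. The UMAMIT family of amino acid exporters had 6 of 33 lower and 0 higher. At an unadjusted p-value below 0.05, 13 were lower and 0 higher, and with the normal deviate 0 were called. UMAMIT14, which exports amino acids in the stele, stood at 66.0 and 44.8 FPKM (effect -0.51).

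ABA genes were called mostly lower. Calls were made in 30.0% of synthesis and breakdown and 17.2% of signalling, against 6.87% of all genes kept. With the normal deviate, 0 were called in synthesis and breakdown, and 1 lower and 0 higher in signalling. Of 10 genes of ABA synthesis and breakdown, 3 were lower, among them NCED3, for the rate-limiting step (5.14 to 3.13 FPKM, effect -0.66), and the breakdown gene CYP707A3 (27.3 to 21.3 FPKM, effect -0.30, q-value 0.0327). Of 29 genes of ABA signalling, 4 were lower and 1 higher. The phosphatase genes HAI1 (13.3 to 8.95 FPKM, effect -0.52) and HAI3 (1.54 to 0.408 FPKM, effect -1.86) and the NAC factor gene RD26 (38.1 to 27.5 FPKM, effect -0.41, q-value 0.00337) are induced by ABA and were lower. The receptor gene PYL6 was higher (4.90 to 7.03 FPKM, effect 0.57, q-value 0.0313).

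Protective proteins of water stress split. KIN1 (939 to 1871 FPKM, effect 1.05), KIN2 (1349 to 2432 FPKM, effect 0.91), LEA14 (193 to 334 FPKM, effect 0.85) and LTI78, also called RD29A (21.7 to 28.8 FPKM, effect 0.46, q-value 0.00337), were higher. The dehydrin gene RAB18 (2.1 to 0.788 FPKM, effect -1.36), LEA4-5 (17.4 to 10.3 FPKM, effect -0.71) and LEA7 (3.79 to 1.88 FPKM, effect -0.96), which shares a locus, were lower. In the list, 5 of 21 were higher and 3 lower on NaCl, against 5 higher and 0 lower on MS. Of 8 genes of proline synthesis, breakdown and transport, 0 were called, 1 at an unadjusted p-value below 0.05 and 0 with the normal deviate, and P5CS1, for its synthesis, stood at 87.2 and 69.8 FPKM (effect -0.27, q-value 0.0569).

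The ethylene synthesis genes that were called were split by step. With the normal deviate, 0 genes of the ethylene list were higher and 1 was lower. All 4 genes called lower of 26 encode 1-aminocyclopropane-1-carboxylate (ACC) synthases, which make the precursor: ACS7 (6.33 to 3.14 FPKM, effect -0.96), ACS11 (1.98 to 0.899 FPKM, effect -1.08), ACS5 (8.13 to 5.82 FPKM, effect -0.43, q-value 0.00595) and ACS2 (3.11 to 2.13 FPKM, effect -0.49, q-value 0.0254). Of the enzymes of the last step, ACO1 (AT2G19590), an ACC oxidase gene, was higher (7.73 to 10.3 FPKM, effect 0.47, q-value 0.0246). AT1G12010, in the list as another such oxidase and described in the files only by its oxygenase superfamily, was higher too (4.95 to 6.97 FPKM, effect 0.55, q-value 0.0143). The receptor gene ETR1 (20.8 and 19.7 FPKM, effect -0.02, q-value 0.801) and EIN2 (27.9 and 24.6 FPKM, effect -0.13, q-value 0.322) were not called. On MS, 0 genes of the list were called, and ACS7 and ACS11 had effects of 0.04 and 0.05.

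Jasmonate genes were called only higher, 2 of 17 (11.8%) in synthesis and breakdown and 3 of 21 (14.3%) in perception and targets. Over all genes kept, 3.12% were called higher. With unadjusted p-values below 0.05, 3 and 5 were higher and 0 and 1 lower, and with the normal deviate 0 were called in either list. They included AOC2, an enzyme of jasmonate synthesis (1.08 to 2.98 FPKM, effect 1.51), and JAZ10, a repressor that jasmonate itself induces (2.81 to 5.55 FPKM, effect 1.03, q-value 0.00337). On MS both had an effect of -0.77 and were not called. Genes that respond to wounding, touch and handling had 5 of 18 higher and 1 lower, with a median of 0.30, JAZ10 among them. The part of handling in these results was not tested. The median of this list was 0.25 on MS.

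Auxin, cytokinin and gibberellin lists were called in both directions. The auxin synthesis genes YUC8 (4.38 to 6.14 FPKM, effect 0.54, q-value 0.0152) and YUC5 (4.0 to 5.84 FPKM, effect 0.60, q-value 0.0371) were higher, while AXR3, a repressor of auxin signalling also called IAA17 (189 to 137 FPKM, effect -0.41), and IAA14 (31.7 to 24.4 FPKM, effect -0.32, q-value 0.0143) were lower. Cytokinin synthesis genes went both ways. IPT5 (15.2 to 10.4 FPKM, effect -0.50), IPT7 (5.31 to 3.53 FPKM, effect -0.54, q-value 0.00936) and LOG1 (2.68 to 1.42 FPKM, effect -0.87, q-value 0.0152) were lower. LOG8, by its symbol of the same family as LOG1, was lower too (effect -0.36, q-value 0.0160). CYP735A2 (effect 0.49, q-value 0.0115) and LOG2, also of that family by its symbol (effect 1.19, q-value below 0.05), were higher. The cytokinin breakdown gene CKX4 was higher (5.94 to 7.95 FPKM, effect 0.47, q-value 0.0424). GA2OX2, which inactivates gibberellin, was higher (2.81 to 4.81 FPKM, effect 0.83), and the gibberellin-regulated gene GASA1 fell from 697 to 446 FPKM (effect -0.59). ATGA2OX1, by its symbol of the same family as GA2OX2, was lower (effect -0.87, q-value below 0.05).

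Indole glucosinolates had 4 of 23 higher and 4 lower. Without adjustment, 6 passed a p-value of 0.05 higher and 6 lower, and with the normal deviate 0 were called. The core enzymes CYP79B2 (69.8 to 91.7 FPKM, effect 0.45, q-value 0.00337), CYP79B3 (30.0 to 45.7 FPKM, effect 0.66) and CYP83B1 (118 to 152 FPKM, effect 0.42, q-value 0.0105) were higher. Their regulators MYB51 (7.84 to 5.24 FPKM, effect -0.53) and MYB122 (2.77 to 1.27 FPKM, effect -1.07) were lower. Genes that modify the indole ring went both ways, with IGMT5 higher (120 to 149 FPKM, effect 0.36, q-value 0.0475) and IGMT2 (37.6 to 26.5 FPKM, effect -0.45) and CYP81F2 (13.9 to 10.8 FPKM, effect -0.31, q-value 0.0371) lower. Aliphatic glucosinolates, made from methionine, had 4 of 23 lower and 0 higher on NaCl with a median of -0.13, and 12 lower and 0 higher of 24 on MS with a median of -0.54. CYP83A1 had effects of -0.38 on NaCl (29.3 to 21.7 FPKM) and -0.81 on MS. At an unadjusted p-value below 0.05, 9 were lower and 1 higher on NaCl, and with the normal deviate 0 were called. Root triterpene genes had 5 of 17 lower and 2 higher on NaCl against 8 lower and 0 higher on MS. The nitrile specifier gene NSP1, which diverts glucosinolate breakdown, was higher on NaCl (145 to 227 FPKM, effect 0.70).

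Among immune regulators, 4 of 23 genes were lower and 0 higher. Unadjusted p-values below 0.05 belonged to 8 lower and 0 higher members, and with the normal deviate 0 were called. The precursor genes of danger peptides PROPEP2 (8.36 to 5.06 FPKM, effect -0.67, q-value 0.0225) and PROPEP3 (31.3 to 22.5 FPKM, effect -0.42, q-value 0.0196) and the camalexin synthesis gene PAD3 (26 to 19.3 FPKM, effect -0.38, q-value 0.00472) were lower. WRKY factors had 7 of 55 higher and 3 lower, with WRKY48 (4.25 to 9.81 FPKM, effect 1.26) highest and WRKY30 (6.85 to 3.18 FPKM, effect -1.05) lowest. The W-box, TTGACN, which WRKY factors bind, was found on either strand in the 250 bases before 45.3% of all genes, 28 of 55 WRKY genes and 16 of 23 immune genes. Among called members it stood before 1 of the 7 WRKY genes higher, 1 of the 3 lower and 3 of the 4 immune genes lower. The G-box, CACGTG, stood before 7.28% of all genes and before 0 of the 5 jasmonate genes called.

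Other large families differed in how often they were called. Cytochromes P450, which modify many metabolites, had 12 of 135 higher and 21 lower, GDSL lipases 7 of 38 higher and 6 lower, and MYB factors 5 of 165 higher and 20 lower. With the normal deviate, cytochromes P450 had 0 higher and 1 lower, GDSL lipases 2 higher and 0 lower, and MYB factors 1 higher and 0 lower. Ribosomal proteins had 3 of 317 higher and 20 lower, 7.26% in all, close to the 6.87% of all genes. Their median was -0.09, with 84 effects above 0 and 232 below. At an unadjusted p-value below 0.05, 6 were higher and 89 lower, and with the normal deviate 0 were higher and 1 lower. Heat shock proteins and factors had 5 of 152 higher and 3 lower, and histones 1 of 74 lower. Of 41 proteasome subunits and 26 proton pump genes, 0 were called. With an unadjusted p-value below 0.05, 5 and 3 of them passed, and with the normal deviate 0. Methionine sulfoxide reductases, which repair oxidised proteins, had 5 of 13 lower, among them MSRB9 (520 to 349 FPKM, effect -0.52) and MSRB6 (24.6 to 16.2 FPKM, effect -0.54).

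The same lines on MS give a comparison made on different samples. There 540 genes of 18743 were called, 2.88%, with 174 higher (0.928%) and 366 lower (1.95%). Of 18493 genes kept on both media, 188 were called on both, 15.5% of those called on NaCl and 35.5% of those called on MS. Of these, 85 were higher on both and 95 lower on both, and 8 were called in opposite directions. Of 1211 genes called on NaCl and kept on both, 915 (75.6%) had an effect of the same sign on MS, against 55.7% of the genes not called. The 538 called higher had median effects of 0.64 on NaCl and 0.22 on MS, and the 673 called lower had -0.40 and -0.13. Chosen by their call on MS instead, 166 genes higher there had medians of 0.80 on MS and 0.50 on NaCl, and 364 lower had -0.45 and -0.14, so that in both choices the medium that chose the genes showed the larger median. AT4G04223, listed as another RNA, was among those higher on both, with 3.99 and 37.7 FPKM on NaCl (effect 3.3) and an effect of 3.06 on MS. The glycine-rich protein gene AT4G18280 (5.75 to 33.6 FPKM on NaCl, effect 2.6) had an effect of 1.86 on MS, called.

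**Figure D5:**
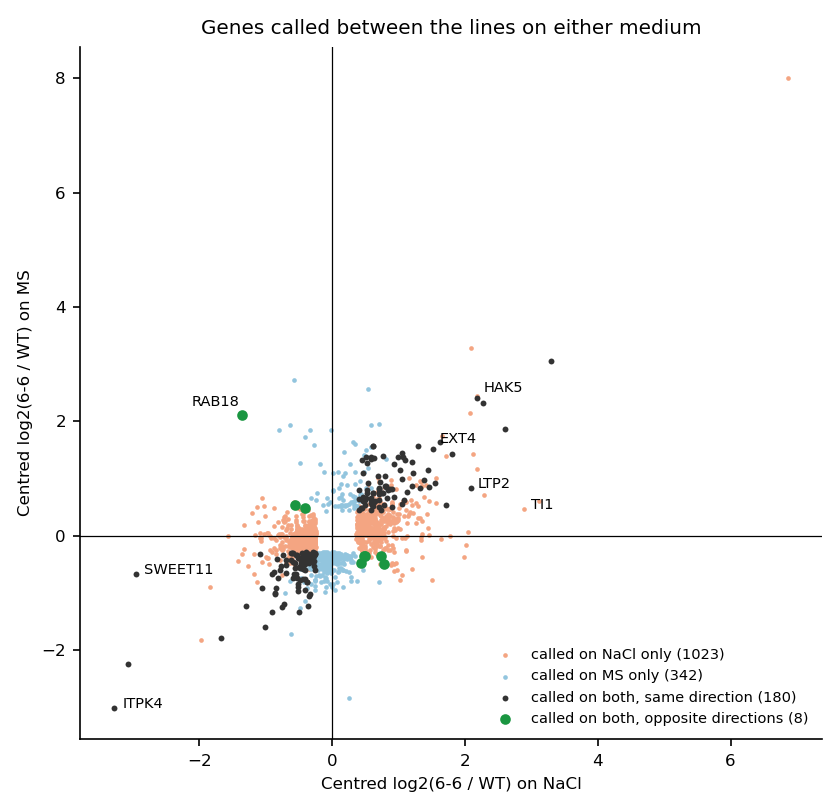
Effect on NaCl (horizontal axis) against effect on MS (vertical axis), both as centred log2 ratios of 6-6 to WT, for genes called on either medium and kept on both. Black points are the 180 genes called on both in the same direction, green points the 8 called in opposite directions, orange points those called on NaCl and blue points those called on MS, and RAB18, one of the 8, lies at -1.36 and 2.11 in the upper left.

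The authors' deposited salt tables give the step from MS to NaCl within each line. They share their groups with the comparison above, so the values stand side by side and the difference between lines in this step was not tested. TI1 had a salt effect of 0.58 in WT (q-value 0.133) and 3.0 in 6-6 (q-value 4.41e-04). CASP5 had -0.82 in WT (q-value 4.82e-04) and -1.88 in 6-6 (q-value 4.41e-04). NRT2:1, the nitrate carrier, had 4.56 in WT and 4.0 in 6-6, with the q-values 4.82e-04 and 4.41e-04, so its level on NaCl lay far above that on MS in both. XTH26 had -2.68 in WT (q-value 0.00131) and -0.17 in 6-6 (q-value 0.744). ACS7 had 0.66 in WT (q-value 4.82e-04) and -0.34 in 6-6 (q-value 0.206). HKT1 had -0.03 in WT (q-value 0.947) and 0.44 in 6-6 (q-value 0.0132).

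Runs of neighbouring genes called in the same direction were counted, and whether they were more or fewer than expected was not tested. In the order of 15829 genes that share no locus, 6 runs of at least 3 called in the same direction were found, 2 higher and 4 lower, with 20 genes in all and at most 5 in a run. The longest, on chromosome 5, was lower and held CHIA, a chitinase gene (effect -0.27, q-value 0.0307), AT5G24100 (effect -0.50), AGP41 (effect -0.34, q-value 0.0414), WRKY30 and SIGE (effect -0.35, q-value 0.0125). A run of genes with the TIR domain of immune receptors on chromosome 1, AT1G72890, AT1G72900 and TIR, had effects of -0.76 (q-value 0.0395), -1.05 and -1.06.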

How the data were processed

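RNA of root tips from 12 samples in 4 groups of 3 had been sequenced. The submitters' processing notes name HISAT2, HTSeq, edgeR and the build TAIR10, without versions or roles. The tables have the gene-level layout of Cuffdiff, per the file headers, and the sources used here do not tell which program made which value. Each deposited table holds FPKM values, 1 per group, in which the authors combined the samples. Beside them stand a test statistic of the authors (a score without a fixed range) and the authors' p-value and q-value per gene. As no value per sample was used, no SD, no depth per sample and no test over samples could be given, and since separate cultures are not mentioned in the labels, the spread behind the p-values may be technical.

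A stray header row, organelle rows and rows not marked OK were dropped, and genes with at least 1 FPKM in either group were kept. Log2 ratios were centred on their median, separately in each table. Calls use the authors' q-value below 0.05 over all tested rows. The work used python 3.11.15, pandas 2.3.3 and numpy 2.4.6, with figures from matplotlib 3.10.9, and the script for calls was tested on simulated data. Gene lists, 86 in all, came from names and from the family words in the description column. The lists hold 3868 of the genes kept and 553 of those called. Members and lists were chosen with earlier results of these data known. Genes were named by rule: ITPK4, the 15 called genes at each end of the effects among those with a symbol and at least 5 FPKM, up to 4 called members per list by smallest q-value, and up to 2 members of lists without a call by highest FPKM. Other genes named were chosen after their values were seen. Genes of 1 locus with another gene in the files, or with near-identical copies, have uncertain values. Promoters were read from RefSeq, TAIR10.1.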

Additional observations from a re-analysis of the deposited data

Results flagged for a closer look

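Organelle transcripts lie outside the nuclear genes compared above, and 4 of the 72 tested on NaCl were called, against 6.87% of the nuclear genes kept. All 4 were lower in 6-6 and stood at low levels. In the authors' deposited table MATK stood at 5.36 FPKM (WT) and 2.56 FPKM (6-6; effect -1.01, q-value 0.00186), ACCD at 4.74 and 3.07 FPKM (effect -0.57, q-value 0.028) and RRN16S.2 at 8.37 and 6.27 FPKM (effect -0.36, q-value 0.0449). PSBE was at 2.64 FPKM in WT and listed at 0 in 6-6 (q-value 0.026). The median effect of organelle transcripts was -0.22. On MS, 43 of 89 were called, all higher in 6-6, with a median of 1.4.

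On NaCl and on MS, 8 genes were called in opposite directions, and the difference between the media was itself not tested. RAB18 had effects of -1.36 on NaCl and 2.11 on MS at low levels, with 0.406 FPKM in WT on MS. ALMT1, a malate channel gene, had 0.74 and -0.35, and GSTF2, a glutathione S-transferase gene, 0.49 and -0.36. AT4G30650 had 0.78 and -0.49, AT5G35940 had 0.43 (q-value 0.0160) and -0.48, and AT5G38020 had 0.48 (q-value 0.00826) and -0.35. AT4G08555 had -0.56 and 0.54, and AT5G48430 had -0.41 and 0.49. The q-values on MS lay between 0.00396 (AT4G30650 and AT5G35940) and 0.0408 (AT5G38020).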

How the results depend on the processing

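No paired analysis was possible because the tables hold 1 value per group, and for the same reason leaving out each replicate in turn could not be run. The number of calls, 1306, became 732 at a q-value below 0.01, with 375 higher, 357 lower and 51.2% higher. It became 208 with the authors' statistic read as a normal deviate, with 140 higher, 68 lower and 67.3% higher, and 201 of these were among the 1306. The statistic and the p-value do not follow each other in the deposited table, where the largest size of the statistic with a p-value over 0.05 was 38.6, and the cause was not tested. Calls numbered 1316 when adjusted over the genes kept, 1323 without a floor, 1070 with a floor of 5 FPKM, 1236 without shared loci, 1306 without centring and 1310 with organelle genes. Of 272 named genes called, 223 were still called at a q-value below 0.01 and 91 by the normal deviate. Of 86 lists, the balance of calls turned in 1 with the floor of 5 FPKM and in 1 at a q-value below 0.01, and medians changed sign in 12 with that floor, 9 without shared loci and 2 on the log2(FPKM + 1) scale. Depth per sample is unknown, so differences between low genes cannot be weighed against counting error.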
